A study of Caenorhabditis elegans with 9 samples.

Results

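The proteasome subunit genes of *C. elegans* were examined in poly(A) RNA from whole animals. Members were every gene whose symbol is *pas-*, *pbs-*, *rpn-* or *rpt-* followed by a number, which gave 33 of the 14218 genes in the deposited table. The core particle accounted for 14 of them (7 *pas* and 7 *pbs* genes) and the regulatory particle for 19 (6 *rpt* and 13 *rpn* genes). Animals of 3 genotypes were collected unstressed at L4, the last larval stage, to ask how gene expression differs when ATF-4 is raised or removed. The first genotype, ATF-4OE, carried the integrated transgene *ldIs119*, in which genomic *atf-4* fused to GFP is driven by the *atf-4* promoter, together with the marker allele *rol-6(su1006)*, an altered cuticle collagen. It is a single integrated line, so that the transgene, its marker and its insertion site cannot be told apart. The second was the outcrossed deletion mutant *atf-4(tm4397)*, and the third was the wild type strain N2 (WT). There were 3 replicates per genotype, each of about 20000 animals raised at 20 °C, with some 1000 to a plate of 10 cm, and within a replicate the genotypes were cultured in parallel.

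The proteasome degrades proteins that carry ubiquitin chains. Its core particle is a barrel of stacked rings, with outer alpha rings (*pas* genes) that gate the entrance and inner beta rings (*pbs* genes) that hold the proteolytic sites. The regulatory particle caps the barrel, where a ring of ATPases (*rpt* genes) unfolds the substrate and non-ATPase subunits (*rpn* genes) form the scaffold, bind ubiquitin and remove it. Subunit genes are often regulated together, and in *C. elegans* the transcription factor SKN-1A raises them when proteasome activity is impaired.

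Levels are given in ppm, parts of a library sum of 1000000: the authors' centred and scaled RPKM of each library was shifted to a lowest value of 0 and scaled to that sum. RPKM is per length, so levels of different genes may be compared. Depth was estimated at 23.8 to 35.2 M reads a library (median 27.5 M) from the steps between RPKM values. The estimate is rough, since at best 20.8 to 24.5% of low values came out whole within 0.02 read. Library names conflict within the deposited data, since 6 of the 9 libraries carry another genotype in the RPKM sheet than in the centred and scaled sheet. Libraries are named here as in the centred and scaled sheet, where *atf-4*, the targeted gene, matched each label, with 5289, 4184 and 6845 ppm in ATF-4OE, 3.81, 3.69 and 9.31 ppm in *atf-4(tm4397)* and 199.6, 167.7 and 214.5 ppm in WT. Under the RPKM sheet's names the libraries labelled ATF-4OE would mix all 3 genotypes. The replicate numbers of *atf-4(tm4397)* 2 and 3 are also exchanged between sheets. A gene passed the test at an adjusted p under 0.1 in limma, fitted on log2(ppm + 1) of all 9 libraries with Benjamini-Hochberg adjustment over 11287 genes of at least 5 ppm in at least 1 library. All 33 members entered the test.

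Apart from *rpn-6.2*, the subunit genes were abundant and lay within a narrow range. Averaged over the 9 libraries, the 14 core particle genes lay between 161.6 and 309.8 ppm (median 194.4), and 18 regulatory particle genes between 85.8 and 175.3 ppm (median 127.8). These 32 genes ranked between the 89.04th and the 96.7th percentile of all genes in the table. *pbs-1*, which encodes a catalytic subunit of the beta ring, was the highest member in 9 of 9 libraries, at 282.1 to 329.1 ppm. *pbs-5*, another catalytic subunit, was at 239.3 to 262.1 ppm and *pbs-2*, the third, at 191.4 to 214.3 ppm. At the low end, the scaffold gene *rpn-2* was at 65.6 to 106.5 ppm and was the second lowest member in 7 of 9 libraries. *rpn-6.2* was the lowest in all 9, at 1.85 to 9.20 ppm, and is described apart.

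**Figure D1:**
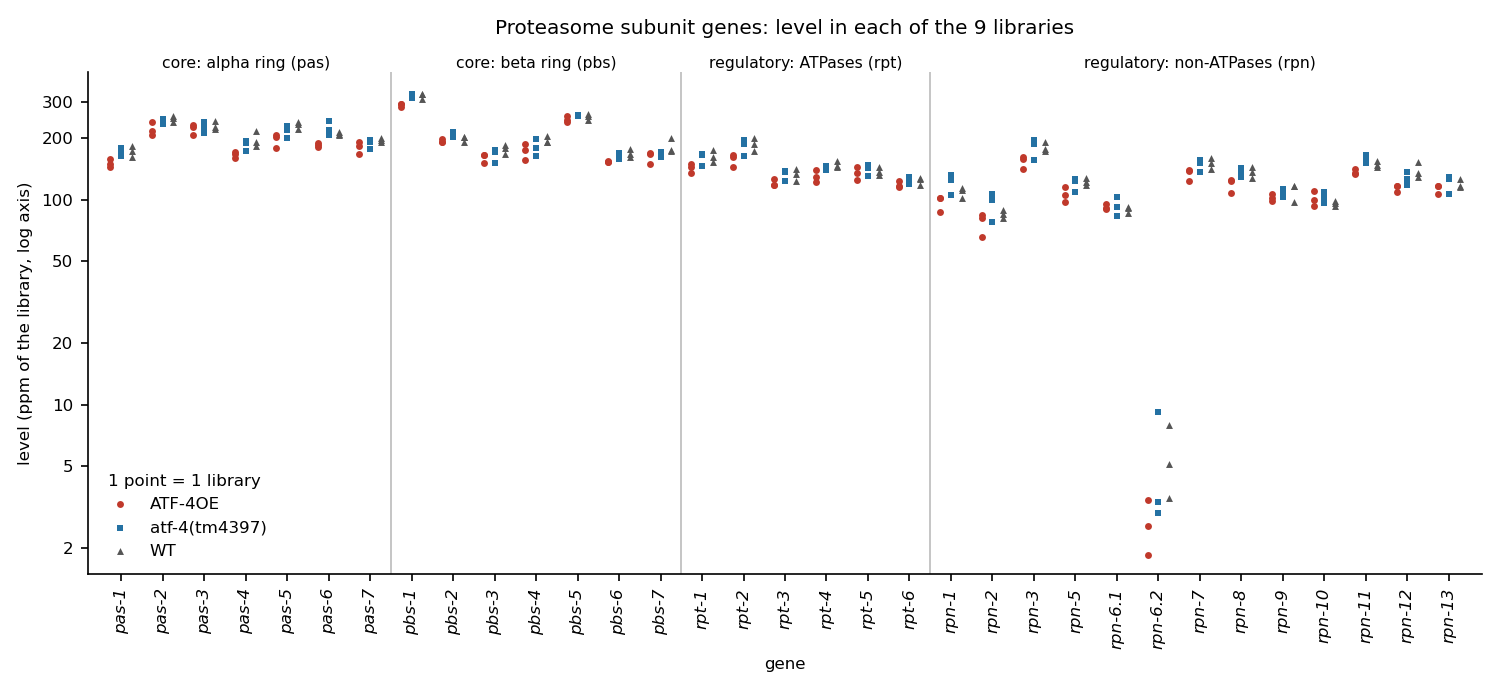
Level of the 33 proteasome subunit genes (ppm of the library, log axis) in 9 libraries, 1 point each, with ATF-4OE left of *atf-4(tm4397)* and WT for every gene. The core particle genes average 161.6 to 309.8 ppm and the regulatory particle genes 85.8 to 175.3 ppm, while *rpn-6.2* lies between 1.85 and 9.20 ppm.

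The members varied little between libraries. The coefficient of variation over 9 libraries was 7.15% for the median member, against 22.5% for the median gene tested, and 32 of 33 members lay below that gene. Within a genotype the median member varied by 5.60% in ATF-4OE, 6.28% in *atf-4(tm4397)* and 4.64% in WT, against 12.4%, 16.3% and 11.6% for the median gene tested. Variation depends on the level, and these members are more abundant than most genes tested. The steadiest member was *pbs-5* (3.06%), whose highest library exceeded its lowest 1.09-fold. Among the 32 abundant members the ratio of highest to lowest library reached 1.62, in *rpn-2* (coefficient of variation 13.99%). No member lies on the X chromosome, which holds 14.3% of the tested genes with a known position. Chromosomes I, II, III, IV and V hold 10, 7, 8, 3 and 5 of them.

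In ATF-4OE animals the subunit genes as a group lay slightly lower than in WT, and few single genes passed the test. None rose, where 22.1% of all genes tested did, and none was higher at an unadjusted p under 0.05. The 3 that fell were *rpn-12*, *pas-5* and *pas-4*, a share of 9.09%, where 14.4% of all genes tested fell. The estimate was negative for 31 of 33 members, with a median log2 fold change of -0.17 (-11.02% in level), against 0.0088 over all genes tested, of which 50.8% were above 0. With quantile normalization these medians were nearer to each other, at -0.12 for the members and -0.06 over all genes tested, of which 44.8% were above 0. For 20 of 33 members (60.6%) every ATF-4OE library was below every WT library, where 23% of all genes tested had this order, and for none was every ATF-4OE library above every WT library, where 25.1% of all genes tested had that order. The changes were small. Without *rpn-6.2* the estimates ran from -0.28 to 0.07, and the 95% intervals of the 32 genes together covered -0.51 to 0.29. All members were read from the same 3 libraries per genotype, so counts of members are not counts of independent results. Per library, the median regulatory gene overlapped between ATF-4OE and WT, while the median core gene was lower in every ATF-4OE library.

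In the alpha ring, all 7 genes had negative estimates, with a median of -0.18. For 5 of them every ATF-4OE library was below every WT library, where 23% of all genes tested had this order. *pas-5* had 201.6, 206.8 and 178.8 ppm in ATF-4OE, against 220.7, 234.5 and 240.5 ppm in WT. Its ATF-4OE libraries were all below its WT libraries, and the third lay apart from the others. The log2 fold change was -0.25 ± 0.22 (95% interval, n = 3 each; limma adjusted p = 0.0886, and 0.136 with the replicate number as a block). *pas-4* had 167.2, 171.5 and 158.9 ppm in ATF-4OE, against 182.3, 192.2 and 216.1 ppm in WT, where the third WT library was the highest. It fell by 0.24 ± 0.22 on the log2 scale (limma adjusted p = 0.0914, and 0.160 with the block). *pas-4* lies on chromosome I from 8727218 to 8728487 and *pas-5* on the same chromosome from 10566350 to 10567300 (WBcel235). Of the others, *pas-1* (-0.20 ± 0.20, limma adjusted p = 0.131), *pas-6* (-0.18 ± 0.20) and *pas-2* (-0.17 ± 0.20) were lower in every ATF-4OE library but did not pass. *pas-7* (-0.12 ± 0.20) and *pas-3* (-0.05 ± 0.20) overlapped between the genotypes. *pas-7* also overlaps *lact-2* on the opposite strand.

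The beta ring genes had a median log2 fold change of -0.13, and none of the 7 passed the test. The catalytic subunits differed among themselves in order rather than in any call. *pbs-1* had 293.2, 292.0 and 282.1 ppm in ATF-4OE, against 327.6, 309.2 and 329.1 ppm in WT, without overlap (-0.15 ± 0.17, limma adjusted p = 0.164). *pbs-2* and *pbs-5* overlapped, with estimates of -0.04 ± 0.18 each that turned positive with quantile normalization (0.03 for *pbs-2* and 0.04 for *pbs-5*). *pbs-5*, whose overexpression is known to extend worm lifespan, was at 256.1, 245.0 and 239.3 ppm in ATF-4OE and at 255.7, 243.8 and 262.1 ppm in WT, so that 1 ATF-4OE library lay above 2 of the WT libraries. The non-catalytic *pbs-3*, *pbs-4*, *pbs-6* and *pbs-7* were lower in every ATF-4OE library, with estimates of -0.13 to -0.18 and intervals that all included 0. *pbs-3* overlaps *ndx-3* and *pbs-4* overlaps *mrrf-1* on the opposite strand, and *pbs-7* overlaps K07A12.5 on its own strand. Whether the counting used strand is not given in the sources used here, so reads of such pairs may not be separable.

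The 6 ATPase genes of the regulatory particle had a median log2 fold change of -0.16, and none passed. *rpt-2* had 162.4, 144.2 and 165.3 ppm in ATF-4OE, against 186.0, 173.3 and 201.0 ppm in WT. All 3 ATF-4OE libraries were lower, and its estimate was the most negative of the ring (-0.25 ± 0.24, limma adjusted p = 0.123). *rpt-4* (-0.19 ± 0.20) and *rpt-1* (-0.19 ± 0.22) also had no overlap. *rpt-3* (-0.13 ± 0.21), *rpt-6* (-0.06 ± 0.19) and *rpt-5* (-0.02 ± 0.22) overlapped, and the sign of *rpt-5* turned with quantile normalization (0.01). On the opposite strand *rpt-2* overlaps *fos-1*, *rpt-4* overlaps *nfyc-1* and *rpoa-49*, and *rpt-6* overlaps *glrx-5*.

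Among the 13 non-ATPase genes only *rpn-12* passed the test. It encodes a lid subunit that also acts in germline sex determination of hermaphrodites, and it lies on chromosome II from 11653124 to 11654192 (WBcel235) with no overlapping gene. Its levels were 116.6, 116.8 and 109.5 ppm in ATF-4OE, against 134.5, 129.7 and 153.5 ppm in WT. The ATF-4OE libraries were all lower, and the third WT library was the highest. *rpn-12* fell by 0.28 ± 0.23 on the log2 scale, to 0.824 of its WT level on that scale (limma adjusted p = 0.0691, and 0.134 with the block).

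The other lid genes, which share the PCI domain, were less uniform. *rpn-3* (-0.23 ± 0.25), *rpn-5* (-0.21 ± 0.23) and *rpn-7* (-0.17 ± 0.23) were lower in every ATF-4OE library. *rpn-9* (-0.10 ± 0.23) overlapped, and *rpn-6.1* did too, with an estimate above 0 (0.03 ± 0.23) that fell below 0 with median ratio scaling (-0.01). *rpn-6.1*, whose overexpression is known to extend worm lifespan, had 95.8, 89.8 and 90.7 ppm in ATF-4OE, against 91.9, 86.6 and 91.3 ppm in WT. The deubiquitinase gene *rpn-11* (-0.12 ± 0.19) and its partner *rpn-8* (-0.20 ± 0.22) were lower without overlap. The ubiquitin receptor genes *rpn-10* (0.07 ± 0.22) and *rpn-13* (-0.07 ± 0.23) overlapped and had estimates of opposite sign. The scaffold genes *rpn-1* (-0.17 ± 0.26) and *rpn-2* (-0.15 ± 0.32) also overlapped, with the widest intervals among the abundant members. *rpn-7*, *rpn-10* and *rpn-11* overlap *nemt-1*, B0205.12 and *pqn-48* on the opposite strand.

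**Figure D2:**
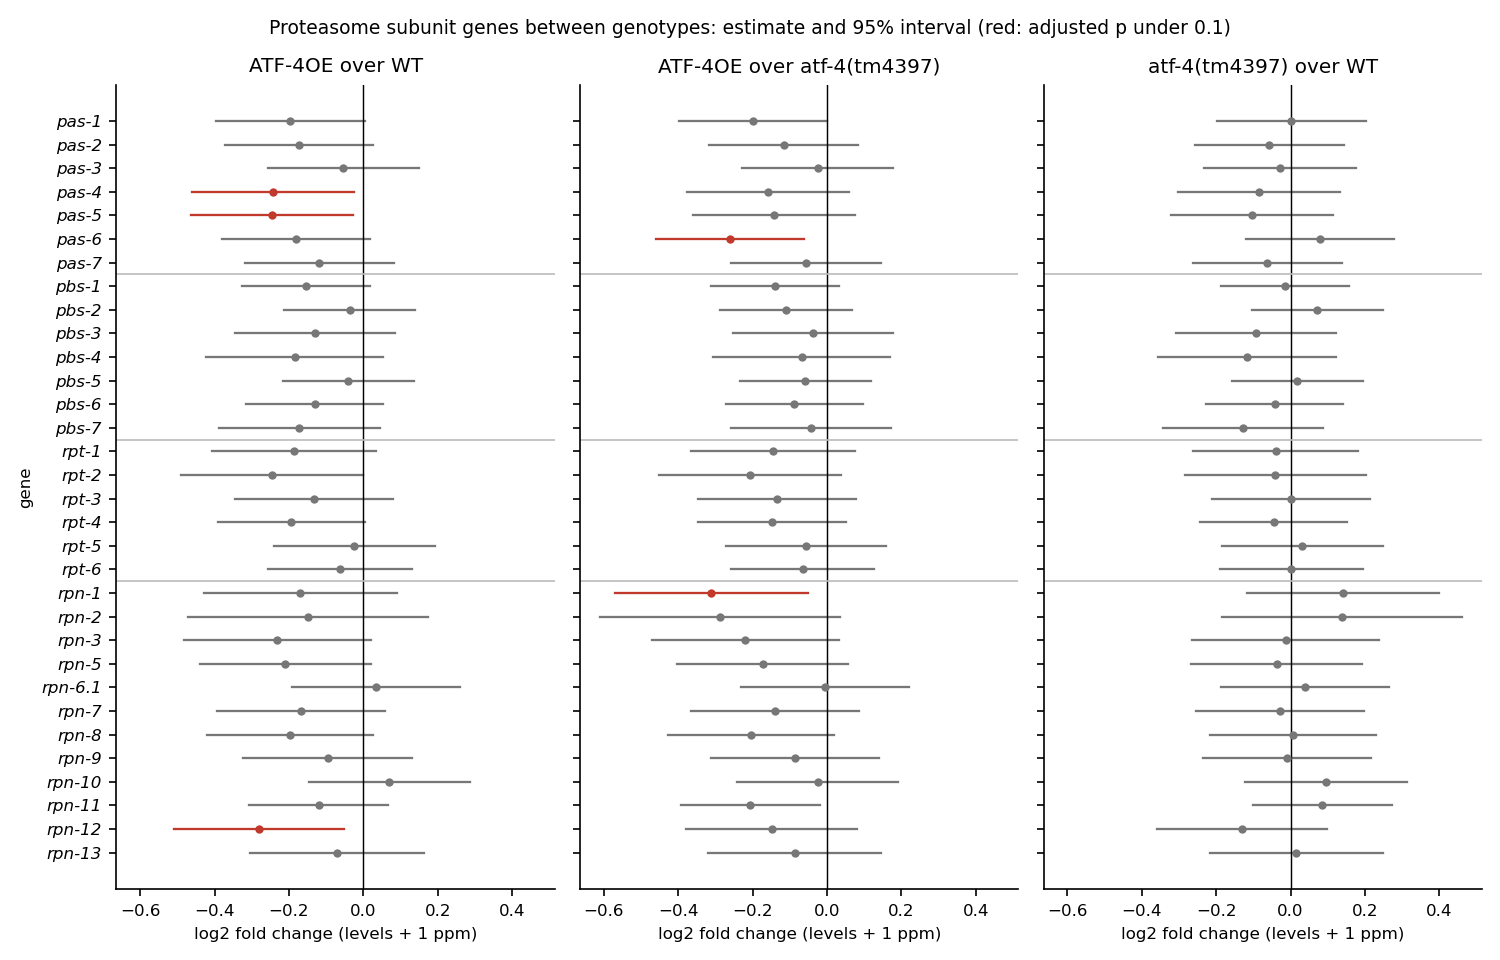
Log2 fold change of 32 proteasome subunit genes (*rpn-6.2* left out) with its 95% interval, from limma on ppm + 1, for 3 pairs of genotypes; rows run from the alpha ring at the top to the non-ATPases. Points in red have an adjusted p under 0.1: *pas-4*, *pas-5* and *rpn-12* against WT, and *pas-6* and *rpn-1* against *atf-4(tm4397)*; with the replicate number as a block none of them passed.

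The count of members that fell in ATF-4OE against WT was not stable, while the sign of most estimates was so. With the replicate number as a block no member passed; with *atf-4(tm4397)* replicates 2 and 3 exchanged in the block, 1 passed (*rpn-12*, limma adjusted p = 0.0960). Over 23 alternatives, the RPKM sheet's names aside, the adjusted p of *rpn-12* ran from 0.0112 to 0.246 and passed in 17. Left out 1 at a time, ATF-4OE replicate 1, ATF-4OE replicate 3 or WT replicate 3 gave 0 members lower. WT replicate 1 or WT replicate 2 gave 1, and *atf-4(tm4397)* replicate 1 gave 5. The count over all genes tested moved too. In the fits that gave 0 members lower, 1023, 1230 and 1018 of all genes fell, in that order. It was 1205 and 1503 in those that gave 1, and 1925 in the one that gave 5. Median ratio scaling gave 12 members lower (2381 genes higher and 2025 lower among all tested, where the main fit had 2493 and 1629), and quantile normalization gave 2 (2088 and 2243). In these settings 28 to 32 of 33 estimates were negative.

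Against *atf-4(tm4397)*, the ATF-4OE animals again had lower estimates for the subunit genes, here for 33 of 33. The median log2 fold change was -0.14, against -0.03 over all genes tested, of which 46.3% were above 0. On centred and scaled values without a log 25 of 33 estimates were negative, where only 23.7% of all genes tested were above 0. Without ATF-4OE replicate 3 it was 28 of 33, where 46.6% of all genes tested were above 0. With quantile normalization the medians were -0.11 for the members and -0.08 over all genes tested, of which 42.3% were above 0. Both comparisons use the same ATF-4OE libraries. No member rose, where 19.8% of all genes tested did, and none was higher at an unadjusted p under 0.05. The alpha ring gene *pas-6* and the scaffold gene *rpn-1* fell, a share of 6.06%, where 13.8% of all genes tested fell. For 11 of 33 members all ATF-4OE libraries were below all *atf-4(tm4397)* libraries, where 16.8% of all genes tested had this order, and for none were they all above, where 22.4% had that order.

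*pas-6*, on chromosome V from 5583161 to 5584343, had 184.9, 180.5 and 189.2 ppm in ATF-4OE, against 205.9, 218.6 and 241.8 ppm in *atf-4(tm4397)*. The mutant libraries were all higher and spread more widely. It fell by 0.26 ± 0.20 on the log2 scale (limma adjusted p = 0.0605, and 0.101 with the replicate block). *rpn-1*, on chromosome IV from 6906420 to 6909913, had 102.1, 87.4 and 101.8 ppm in ATF-4OE, against 105.9, 125.1 and 131.5 ppm in *atf-4(tm4397)*. Mutant replicate 1 was close to the ATF-4OE libraries and the other 2 were well above them. *rpn-1* fell by 0.31 ± 0.26 on the log2 scale (limma adjusted p = 0.0794, and 0.122 with the replicate block). The other scaffold gene, *rpn-2*, had the same order of mutant libraries, with 84.7, 65.6 and 81.5 ppm in ATF-4OE and 77.9, 100.02 and 106.5 ppm in *atf-4(tm4397)*, and did not pass (-0.29 ± 0.32, limma adjusted p = 0.173). With the replicate number as a block no member passed. Leaving out any ATF-4OE library, *atf-4(tm4397)* replicate 2 or *atf-4(tm4397)* replicate 3 also gave 0. WT replicate 1 or WT replicate 3 gave 1, and *atf-4(tm4397)* replicate 1 gave 5. Of all genes tested, 866, 1028 and 1018 fell without ATF-4OE replicate 1, 2 and 3. Without *atf-4(tm4397)* replicate 1, 2 and 3 it was 2107, 765 and 1330, and without WT replicate 1 and 3 it was 1285 and 1308. The fit of these 2 genotypes alone gave 0, median ratio scaling 7 (2233 genes higher and 2031 lower among all tested, where the main fit had 2235 and 1555) and quantile normalization 2 (2021 and 2239).

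Between *atf-4(tm4397)* and WT no difference of a subunit gene was detectable with 3 libraries each. In *atf-4(tm4397)* against WT, 0 of 33 rose and 0 fell by limma, where 0.0354% and 0.0177% of all genes tested did, and none reached an unadjusted p under 0.05 in either direction. Estimates were negative for 19 and positive for 14 members (11 and 22 without WT replicate 3, 13 and 20 without *atf-4(tm4397)* replicate 1, 29 and 4 on centred and scaled values without a log), with a median log2 fold change of -0.02 against 0.02 over all genes tested. Of all genes tested 54.2% were above 0 (54.8%, 59.05% and 82.2% in the same settings). Without *rpn-6.2* the estimates of the members ran from -0.13 to 0.14, and the 95% intervals together covered -0.36 to 0.46. The ends were *rpn-12* (-0.13 ± 0.23, limma adjusted p = 0.630) and *rpn-1* (0.14 ± 0.26, limma adjusted p = 0.645). *pbs-7* was below WT in all mutant libraries, with 165.3, 171.7 and 161.3 ppm in *atf-4(tm4397)* against 172.2, 174.8 and 199.1 ppm in WT (-0.13 ± 0.22), and *pbs-2* was above it, with 203.4, 209.6 and 214.3 ppm against 203.1, 191.5 and 202.0 ppm in WT (0.07 ± 0.18). A single member in each direction compares with 7.98% and 6.07% of all genes tested. Whether the subunit genes respond differently to the gain and to the loss of ATF-4 was not tested beyond the direct comparison of those genotypes above.

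Summed over genes, the core particle reached 2770, 2746 and 2577 ppm in ATF-4OE, 2955, 2938 and 2832 ppm in *atf-4(tm4397)* and 2927, 2911 and 3109 ppm in WT. The core sum in ATF-4OE was below that of every other library. The regulatory particle summed to 2266, 2037 and 2163 ppm in ATF-4OE, 2224, 2475 and 2490 ppm in *atf-4(tm4397)* and 2388, 2264 and 2504 ppm in WT. Here ATF-4OE replicate 1 lay above *atf-4(tm4397)* replicate 1 and just above WT replicate 2, so that the groups overlapped. Summed levels averaged 2698 ± 105 ppm for the core and 2155 ± 114.8 ppm for the regulatory particle in ATF-4OE, 2908 ± 66.5 and 2397 ± 150 ppm in *atf-4(tm4397)*, and 2982 ± 110 and 2386 ± 120 ppm in WT (SD, n = 3 each). In these whole-animal samples, fewer cells of a type and less RNA per cell cannot be told apart.

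The ratio of the core to the regulatory sum overlapped between all genotypes. It was 1.22, 1.35 and 1.19 in ATF-4OE, 1.33, 1.19 and 1.14 in *atf-4(tm4397)* and 1.23, 1.29 and 1.24 in WT. The particles deviated together in some libraries and apart in others. Both were low in ATF-4OE replicate 3, where the median core gene was at -0.15 and the median regulatory gene at -0.09 on the log2 scale from the mean of the 9 libraries, and no gene of either exceeded its mean. Both were high in WT replicate 3, at 0.12 each. The median regulatory gene was lowest in ATF-4OE replicate 2, at -0.17, where 0 of 18 genes exceeded their mean and the median core gene was at -0.04. In *atf-4(tm4397)* replicate 1 the median regulatory gene was at -0.07 and the median core gene at 0.04. In *atf-4(tm4397)* replicate 3 the median regulatory gene was at 0.12 and the median core gene at -0.05, so that the particles went opposite ways in both of these mutant libraries.

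The 2 particles differ in gene length, and all tested genes deviated by length in several libraries, in some of them in the direction of the regulatory genes and in others against it. Exon length was 801 to 1059 bases (median 880.5) for core genes and 855 to 3171 bases (median 1493) for regulatory genes. The median gene of 2500 bases and over was at 0.10, -0.26 and 0.14 in ATF-4OE, at -0.14, 0.12 and 0.20 in *atf-4(tm4397)* and at -0.03, -0.07 and -0.11 in WT. It was low or high with the regulatory genes in ATF-4OE replicate 2 and in the mutant libraries, but was high in ATF-4OE replicate 3, where they were low, and low in WT replicate 3, where they were high. The median gene under 1000 bases was at 0.05, 0.10 and -0.07 in ATF-4OE, at -0.05, -0.00 and -0.15 in *atf-4(tm4397)* and at -0.04, 0.02 and -0.00 in WT. After each library was adjusted for exon length, a choice made after seeing the data, the median regulatory gene was at -0.05, -0.13 and -0.10 in ATF-4OE, 0.02, -0.02 and 0.12 in *atf-4(tm4397)* and 0.06, -0.01 and 0.10 in WT. The ATF-4OE libraries were then the 3 lowest for both particles. With that adjustment 16 members fell against WT (*rpn-12*, limma adjusted p = 0.0112), where 2490 of 11205 genes did, and 9 fell against *atf-4(tm4397)*, where 2358 of 11205 did. The part of length in these differences was otherwise not tested.

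**Figure D3:**
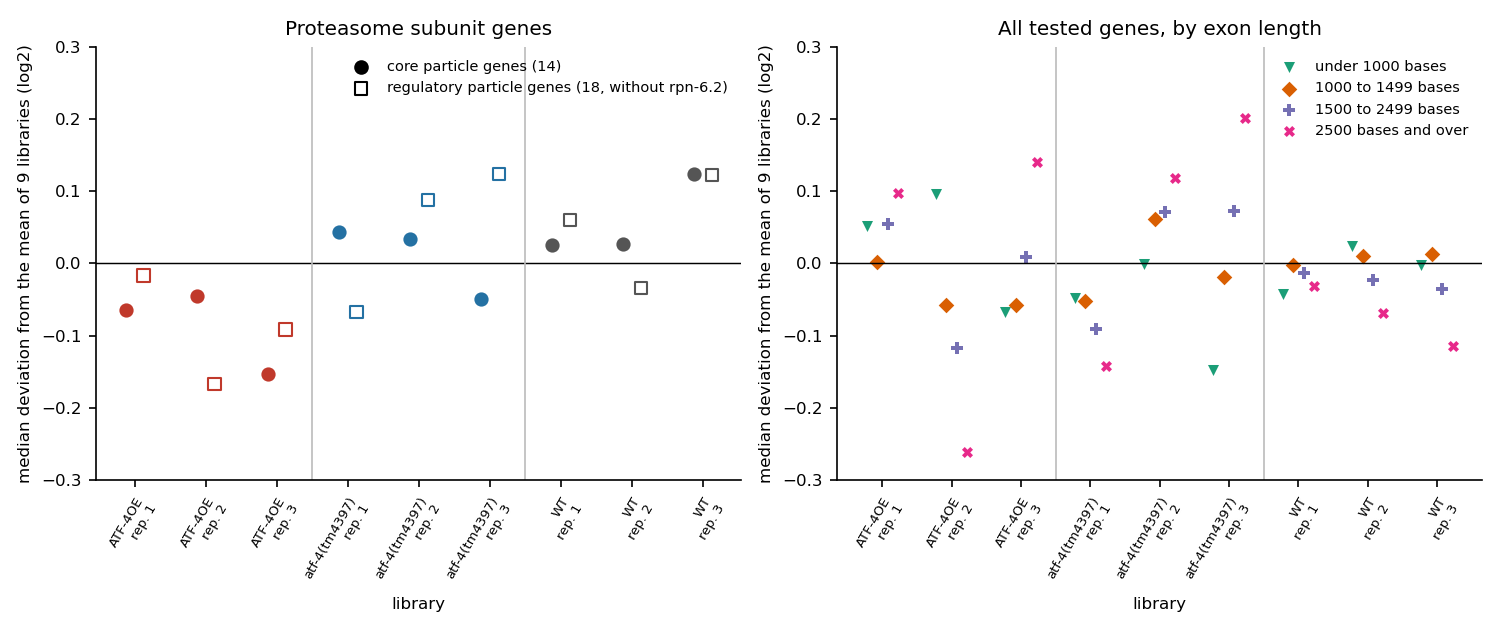
Median deviation from the mean of 9 libraries (log2 scale) in each library, for core and regulatory particle genes on the left and for all tested genes by exon length on the right. ATF-4OE replicate 2 has the lowest regulatory median (-0.17) and the lowest median of genes of 2500 bases and over (-0.26), while in ATF-4OE replicate 3 these are -0.09 and 0.14.

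*rpn-6.2* stood apart from the other members. It is a paralog of *rpn-6.1* on the same chromosome (III, 8999817 to 9001999, against 6959110 to 6962001), and reads shared by the copies may have been split in the counting. It averaged 4.44 ppm, at the 30.1th percentile of the table, with a coefficient of variation of 56.8%. Its levels were 1.85, 3.44 and 2.57 ppm in ATF-4OE, 3.35, 9.20 and 2.96 ppm in *atf-4(tm4397)* and 5.16, 3.52 and 7.96 ppm in WT. Every ATF-4OE library was below every WT library, but *atf-4(tm4397)* replicate 2 and WT replicate 3 stood above the other libraries. It entered the test only through these 2 and WT replicate 1, and none of the ATF-4OE libraries reached 5 ppm. The log2 fold change against WT was -0.82 ± 0.89 (limma adjusted p = 0.154), on a scale that understates changes of low genes. It passed with quantile normalization, with library weights, with ATF-4OE and WT fitted alone, and without *atf-4(tm4397)* replicate 2.

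The libraries in which *rpn-6.2* was high were those in which sperm genes were high. Of 35 sperm markers, 31 were tested and 26 were at 0 in at least 1 library. Summed over the 35, they reached 5.47, 38.6 and 22.2 ppm in ATF-4OE, 7.75, 466.0 and 5.66 ppm in *atf-4(tm4397)* and 46.8, 6.13 and 256.4 ppm in WT. *rpn-6.1* did not follow them, with 83.0, 92.5 and 102.7 ppm in *atf-4(tm4397)* and 91.9, 86.6 and 91.3 ppm in WT. Sperm are first made at L4, and the share of these levels that belongs to sperm was not tested. Without the 2 libraries of highest sperm level, an alternative chosen after seeing the data, 0 members fell in ATF-4OE against WT. There 30 of 33 estimates were negative, and 0 members fell against *atf-4(tm4397)*. Fewer genes fell among all tested as well, 952 against WT and 631 against *atf-4(tm4397)*, where the main fit had 1629 and 1555.

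**Figure D4:**
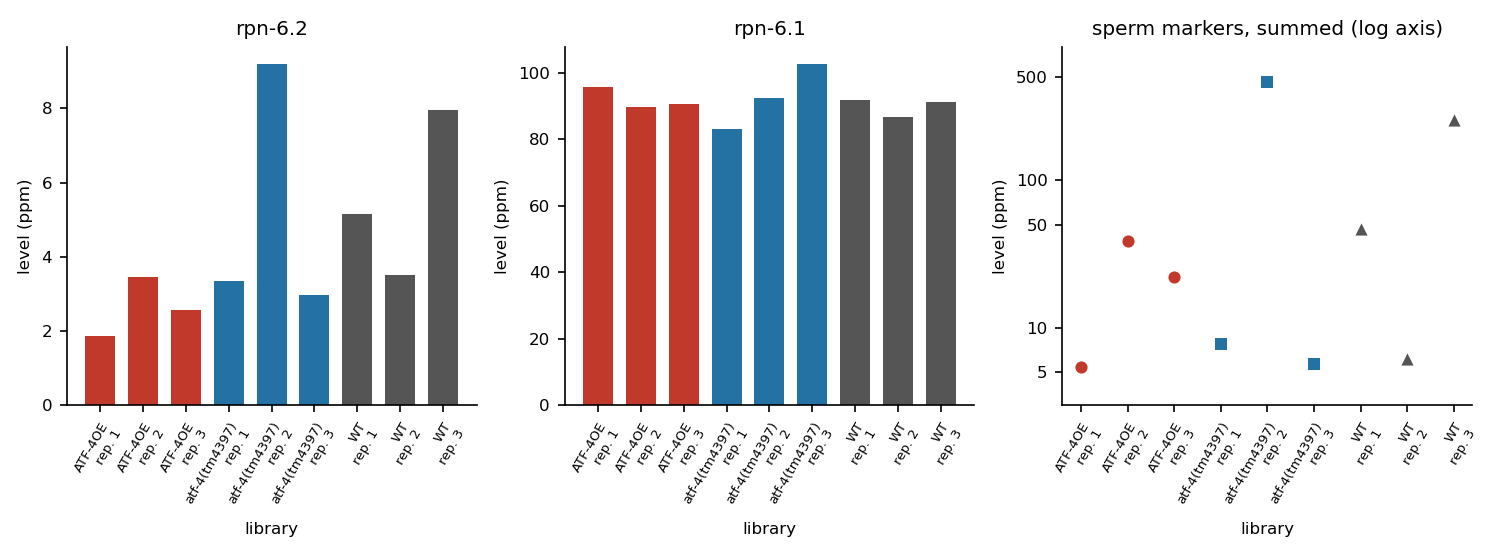
Level of *rpn-6.2* and *rpn-6.1* (ppm, bars from 0) and summed level of sperm markers (ppm, log axis) in each of the 9 libraries, coloured by genotype. *rpn-6.2* and the sperm markers are highest in *atf-4(tm4397)* replicate 2 (9.20 and 466.0 ppm) and WT replicate 3 (7.96 and 256.4 ppm), while *rpn-6.1* stays between 83.0 and 102.7 ppm.

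Genes that act beside the proteasome were read from lists, and in ATF-4OE against WT few of their members passed. These counts stand against 22.1% of all genes tested that rose and 14.4% that fell. Of 8 proteasome-associated factors 0 rose and 2 fell, with a median log2 fold change of -0.14. They were *ubh-4*, a deubiquitinase of the regulatory particle, and *psme-3*, an activator that binds the core in place of it. *ubh-4* averaged 81.9 ppm in ATF-4OE and 107.0 ppm in WT (-0.38, limma adjusted p = 0.0128; 0.0376 with the replicate block), and *psme-3* 61.6 ppm in ATF-4OE and 77.0 ppm in WT (-0.32, limma adjusted p = 0.0615). Of 8 genes of the SKN-1A route 1 fell and 0 rose (median -0.13), and *skn-1* itself did not pass (0.33, limma adjusted p = 0.198). That gene was *cdc-48.2*, an unfoldase of ubiquitin-tagged proteins, which also counts among the 12 CDC-48 genes, of which 2 fell and 0 rose (median -0.18). It averaged 166.9 ppm in ATF-4OE and 209.4 ppm in WT (-0.33, limma adjusted p = 0.0744; 0.107 with the replicate block). The other was *ufd-2*, which extends ubiquitin chains, at 26.6 ppm in ATF-4OE and 36.8 ppm in WT (-0.46, limma adjusted p = 0.0269).

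Of 22 ubiquitin, E1 and E2 genes, which act upstream of the proteasome, 4 rose and 1 fell (median -0.05), shares below the 22.1% and 14.4% of all genes tested. The ubiquitin-conjugating enzyme gene *ubc-8* averaged 31.9 ppm in ATF-4OE and 19.1 ppm in WT (0.69, limma adjusted p = 0.0149), and *ubc-3* 104.2 ppm in ATF-4OE and 65.9 ppm in WT (0.66, limma adjusted p = 0.0164). *ubc-13* rose by less (0.30, limma adjusted p = 0.0456). So did *ubc-1*, named after its value was seen (0.29, limma adjusted p = 0.0765; 0.117 with the replicate block), and *ubc-23* fell to 5.23 ppm in ATF-4OE, against 8.54 ppm in WT (-0.63, limma adjusted p = 0.0241). Of 18 cullin ligase genes 1 rose and 1 fell (median -0.06): the adaptor gene *skr-4* fell to 7.54 ppm in ATF-4OE, against 21.98 ppm in WT (-1.43, limma adjusted p = 0.000448), and *skr-16* rose (0.40, limma adjusted p = 0.0602; 0.108 with the replicate block). In autophagy, the other large degradation route, 4 of 24 genes rose and 1 fell (median 0.13), again shares below those of all genes tested. With 1 library left out at a time, 1 to 6 rose (1 without ATF-4OE replicate 1 or 3, and 2 without WT replicate 1 or 3), and with library weights 10 rose. *lgg-1*, which marks the autophagosome membrane, averaged 508.5 ppm in ATF-4OE and 327.5 ppm in WT (0.64, limma adjusted p = 0.00380). *lgg-2* (0.48) and the transcription factor gene *hlh-30* (0.45) rose too, and *epg-3* fell (-0.46, limma adjusted p = 0.0110). The fourth was *atg-9*, named after its value was seen, which encodes a membrane protein of early autophagosomes (0.40, limma adjusted p = 0.0835; 0.112 with the replicate block).

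Complexes of like build gave a mixed picture in ATF-4OE against WT. None of 6 COP9 signalosome genes, which share the architecture of the proteasome lid, rose or fell (median -0.12), and the same held for 12 genes of translation factor eIF3 (median -0.10). All 8 genes of the CCT chaperonin, which folds actin and tubulin, had positive estimates (median 0.25), and 4 rose (*cct-1*, *cct-3*, *cct-4* and *cct-7*) and 0 fell. *cct-1* averaged 332.2 ppm in ATF-4OE and 274.0 ppm in WT (0.28, limma adjusted p = 0.0602). With the replicate block 0 of the 8 rose (limma adjusted p = 0.118 for *cct-1*), with median ratio scaling 0 and with quantile normalization 8. Of all genes tested 2493 (22.1%) rose in the main fit, and 2218, 2381 and 2088 in these settings. In *atf-4(tm4397)* against WT 0 genes of any of the 9 lists rose and 0 fell. Against *atf-4(tm4397)*, 0 of 8 CCT genes rose or fell in ATF-4OE, and 3 of 12 eIF3 genes fell (median -0.20), where 13.8% of all genes tested fell: *eif-3.C*, *eif-3.D* and *eif-3.I*, named after their values were seen. With the replicate block none of these 3 passed, and the limma adjusted p was 0.103 to 0.165.

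Markers of tissues moved between the same groups of libraries. In ATF-4OE against WT, 8 of 11 intestine markers fell, where 14.4% of all genes tested did. Of neuron markers 12 of 14 rose, of body wall muscle markers 7 of 11 and of epidermis markers 8 of 10, where 22.1% of all genes tested did, and germline markers had a median log2 fold change of -0.59 with 0 of 14 passing. Summed intestine markers ranged from 6454 to 9474 ppm in ATF-4OE, from 7743 to 11897 ppm in *atf-4(tm4397)* and from 12060 to 14071 ppm in WT, with no overlap between ATF-4OE and WT. Summed neuron markers ranged from 930.6 to 1124 ppm in ATF-4OE, from 576.6 to 674.3 ppm in *atf-4(tm4397)* and from 583.2 to 665.2 ppm in WT. Summed germline markers ranged from 268.0 to 282.5 ppm in ATF-4OE, from 320.2 to 765.7 ppm in *atf-4(tm4397)* and from 354.0 to 403.0 ppm in WT. In ATF-4OE against *atf-4(tm4397)* all 14 had negative estimates and 12 of 14 passed the test, where 13.8% of all genes tested fell. Adult yolk markers had the largest median, at -2.38 in ATF-4OE against WT, and 2 of 4 fell. Their sums ranged from 3.46 to 9.67 ppm in ATF-4OE, from 2.94 to 199.6 ppm in *atf-4(tm4397)* and from 15.3 to 342.8 ppm in WT. Oocyte markers had a median of -0.52 with 0 of 7 passing, and of pharynx markers 3 of 5 rose (median 1.06). No marker of the germline or the intestine was at 0 in any library. The part of these tissues in the lower levels of the subunit genes was not tested.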

How the data were processed

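The authors aligned reads to WBcel235 with STAR 2.4.0j and counted them per gene with featureCounts. After removing transcripts below 1 CPM they computed RPKM, which they deposited for 9 libraries run in 1 lane. They also deposited scores, which are the RPKM of each library centred on its mean and scaled by its SD, for 14218 genes, and scores of the most regulated genes. The authors' enrichment results for gene annotation terms were not used. The sheets hold the same libraries under conflicting names (largest deviation from a straight line 4.99e-07), and 3 of 9 libraries carry the same genotype in both. In the score sheet, the columns taken as *atf-4(tm4397)* replicate 2 and ATF-4OE replicate 3 are headed atf5 where the others have atf4, although no sample label names that gene. Of low RPKM values, 20.8 to 24.5% were whole within 0.02 read, so counts were not recovered and no count test was run.

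Scores were shifted and scaled to ppm, and limma 3.58.1 (R 4.3.3, trend, no block) compared the 3 genotypes on log2(ppm + 1), two-sided, with Benjamini-Hochberg adjustment, a limit of 0.1 and none on the fold. Intervals are 95%. For the median gene the log2 fold change had a standard error of 0.17. The sources say that the genotypes of a replicate were grown together, which would make the number mark a shared batch. Over 9 pairs of same-numbered libraries, deviations from the group means correlated between -0.68 and 0.31, and were over 0.1 in 3. Pairs of different number ran from -0.52 to 0.76, the highest being *atf-4(tm4397)* replicate 2 with WT replicate 3. With *atf-4(tm4397)* replicates 2 and 3 exchanged, as in another sheet, that pair shares a number. Mutant and WT libraries of like number then correlated at 0.26, 0.68 and 0.76. Those of ATF-4OE with either genotype ran from -0.48 to 0.18. As numbered here, the correlations do not show a batch shared by number, so the block may not remove one. Which numbering is right was not tested. The block is given beside results whose call it changes. Gene names and positions came from Ensembl release 115 of WBcel235 (14092 of 14218 IDs); exon length is the union of exons. The fits were tested on simulated data first. Every member was named, of each of 9 pathway lists up to 4 genes of smallest adjusted p, and *atf-4*; 9 marker lists were summed. Members and lists were chosen with earlier results of these data known. Tables and figures used Python 3.11.15, pandas 2.3.3, numpy 2.4.6 and matplotlib 3.10.9.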

Additional observations from a re-analysis of the deposited data

How the results depend on the processing

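Under 24 alternatives, 2 of them chosen after seeing the data, no proteasome subunit gene rose in any comparison, and 0 fell in *atf-4(tm4397)* against WT. The number that fell in ATF-4OE against WT (3) and against *atf-4(tm4397)* (2) was 12 and 7 with median ratio scaling, 2 and 2 with quantile normalization, 9 and 1 on centred and scaled values without a log, 1 and 2 without the trend, 9 and 5 with library weights, 3 and 0 with only the compared genotypes fitted, 0 and 0 under the RPKM sheet's names, 16 and 9 after length adjustment, and 0 and 0 without the libraries of highest sperm level. Against WT, 1629 of all genes tested fell, and 862 on centred and scaled values without a log, 1559 without the trend, 2319 with library weights and 1359 with the replicate block; against *atf-4(tm4397)* 1555 fell, and 666, 1463, 2371 and 1120 in the same settings. With only the compared genotypes fitted, 1981 and 1137 of all genes tested fell, and 952 and 631 without the libraries of highest sperm level. After length adjustment it was 2490 and 2358 of 11205. Under the RPKM sheet's names 0 of 10378 genes rose or fell in any comparison, so the 0 there is not particular to the members. Other pseudocounts and filters gave 3 members lower, and 2 to 3. With the replicate block it was 0 and 0, and with *atf-4(tm4397)* replicates 2 and 3 exchanged in the block 1 and 0; calls that the block changed among named genes stand beside them. Leaving out 1 library gave 0 to 5 against WT and 0 to 5 against *atf-4(tm4397)*, while 1018 to 1925 and 765 to 2107 of all genes tested fell. The causes were not tested.

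Outside the RPKM sheet's names, 28 to 32 of 33 estimates were negative in ATF-4OE against WT, 25 to 33 in ATF-4OE against *atf-4(tm4397)* and 11 to 29 in *atf-4(tm4397)* against WT. The 25 and 29 were on values without a log, where 23.7% and 82.2% of all genes tested were above 0. In ATF-4OE against WT, *rpn-6.1* was at -0.015 with median ratio scaling; *pbs-2* was at 0.029, *pbs-5* at 0.045 and *rpt-5* at 0.0065 with quantile normalization; *rpt-5* was at 0.0029 with library weights, at -0.075 to 0.030 with 1 library left out at a time (above 0 without ATF-4OE replicate 2 or WT replicate 3), and at 0.012 without the libraries of highest sperm level. Under the RPKM sheet's names, which mix genotypes by the level of *atf-4*, 17 of 33 estimates against WT were negative and the median was -0.0019, against 0.04 for ATF-4OE over *atf-4(tm4397)*. There the turned estimates were 0.020 for *pas-1*, 0.026 for *pas-4*, 0.0096 for *pas-6*, 0.015 for *pbs-6*, 0.029 for *rpn-1*, 0.043 for *rpn-2*, 0.096 for *rpn-3*, 4.4e-05 for *rpn-5*, -0.016 for *rpn-6.1*, 0.63 for *rpn-6.2*, 0.043 for *rpn-7*, 0.054 for *rpn-8*, -0.10 for *rpn-10*, 0.034 for *rpn-12*, 0.080 for *rpn-13*, 0.042 for *rpt-1*, 0.072 for *rpt-2*, 0.0021 for *rpt-3*, 0.016 for *ubh-4*, -0.091 for *ubc-13*, 0.24 for *skr-4*, 0.11 for *ufd-2*, 0.061 for *cdc-48.2*, -0.11 for *cct-1*, -0.11 for *cct-7*, -0.072 for *cct-3*, -0.073 for *cct-4*, 0.053 for *epg-3* and -0.049 for *hlh-30*, and over *atf-4(tm4397)* 0.064 for *rpn-1* and 0.069 for *rpn-2*. With 3 libraries a genotype, intervals of the abundant members reached at least 0.17 to either side on the log2 scale, so that smaller differences were not detectable.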
